A study of Mus musculus with 8 samples.

Results

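F-box proteins are the parts of SCF ubiquitin ligases that pick the protein to be marked for degradation. The genes described here are the F-box protein genes of mouse gastrocnemius, a calf muscle, other than Fbxo32, the atrogin-1 gene. They were taken by symbol, as every row named Fbxo, Fbxl or Fbxw followed by a number, without Fbxo32. Among 23282 deposited rows, 77 met this rule, and 50 of these passed edgeR's filter on low counts, among 13174 genes tested in all.

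Transcript 3′ ends were sequenced in 8 libraries of C57BL/6 gastrocnemius, and the series asked how a peony extract acts on muscle wasting in tumour-bearing mice. The 2 RP libraries came from mice injected under the skin with Lewis lung carcinoma cells, an established tumour line of C57BL/6 origin, in 100 µl of saline. These mice were dosed by mouth each day for 2 weeks with Paeonia lactiflora extract (100 mg/kg, made with 30% ethanol) in water. The 3 libraries titled Control came from mice with the same tumour cells that received 200 µl of water by mouth instead. The 3 libraries titled Normal came from mice injected with 100 µl of saline and given the same volume of water. The series text gives an age of 4 weeks for the mice, and tumours grew for 2 weeks before dosing, when mice were regrouped so that tumour sizes matched between groups. The tumour line, the strain and the muscle are the only model details in the labels, and nothing in them ties a library to its own mouse. The p-values therefore reflect variation among the samples given, which may be technical.

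The labels conflict for 6 of the 8 libraries. For each Normal and Control sample, the table's name and column header give the other of these 2 groups. Groups are given here by title. If the table names are right instead, every Control against Normal change has the opposite sign, while RP against Control and RP against Normal trade places.

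Libraries held 9528011 to 12333767 counts, so that 1 count was worth 0.0882 to 0.108 CPM (the usual depth-scaled count, here on library sizes adjusted with TMM factors, which correct for differences in library composition). The 10 skeletal muscle fibre markers, Ckm and Acta1 among them, were all detected and summed to 82524 to 135879 CPM per library. Haemoglobin genes took 0.862% and 3.83% of counts in the RP libraries, 1.41 to 1.61% in the Control libraries and 4.57 to 19.7% in the Normal libraries. Neutrophil markers summed to 41.9 and 517 CPM in the RP libraries, 16.6 to 28.9 CPM in the Control libraries and 968 to 1990 CPM in the Normal libraries. In bulk muscle, fewer cells of a type cannot be told apart from less RNA per cell.

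An SCF ligase is built on the cullin CUL1, with RBX1 holding the ubiquitin-carrying enzyme and SKP1 holding the F-box protein. The F-box proteins differ in what they bind: the Fbxw group recognises targets through WD40 repeats, the Fbxl group through leucine-rich repeats, and the Fbxo group through other domains. In muscle the group is best known for atrogin-1, which is induced in wasting. In mice Fbxo30 (MUSA1) and Fbxo21 (SMART) have also been tied to the loss of muscle after denervation, and Fbxo40 to the turnover of the insulin receptor substrate IRS1.

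The 250 bases before the transcription start of the 3 F-box genes that passed the test between Control and Normal libraries are shown, because these genes carry the differences described further on. They are from RefSeq on GRCm38.p6 (the mm10 build), read 5′ to 3′ on the gene's strand, with CpG dinucleotides in capitals. Fbxo31 reads chr8:121578807-121579056 on the minus strand, Fbxo21 chr5:117976520-117976769 on the plus strand and Fbxl17 chr17:63500581-63500830 on the minus strand. RefSeq starts were used for these windows, and the gene positions given further on are from GENCODE. The 2 annotations place the starts of Fbxo21 and Fbxl17 differently: the Fbxo21 window runs into the GENCODE gene, and the Fbxl17 window lies apart from it.
Fbxo31: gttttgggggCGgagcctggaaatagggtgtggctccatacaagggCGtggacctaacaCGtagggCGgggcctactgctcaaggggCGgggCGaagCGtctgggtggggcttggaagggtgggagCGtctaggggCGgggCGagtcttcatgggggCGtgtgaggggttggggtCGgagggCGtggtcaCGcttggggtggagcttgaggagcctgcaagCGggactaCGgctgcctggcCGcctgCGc
Fbxo21: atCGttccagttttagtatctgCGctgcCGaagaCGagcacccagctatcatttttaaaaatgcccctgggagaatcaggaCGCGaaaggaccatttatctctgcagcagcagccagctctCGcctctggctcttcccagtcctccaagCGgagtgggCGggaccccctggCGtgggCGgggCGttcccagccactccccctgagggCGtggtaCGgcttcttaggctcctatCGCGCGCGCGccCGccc
Fbxl17: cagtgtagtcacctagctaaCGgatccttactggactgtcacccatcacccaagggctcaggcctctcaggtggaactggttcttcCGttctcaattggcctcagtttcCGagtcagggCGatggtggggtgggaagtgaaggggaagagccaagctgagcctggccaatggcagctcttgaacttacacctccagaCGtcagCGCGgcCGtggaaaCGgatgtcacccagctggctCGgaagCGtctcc

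The Fbxo31 promoter held 18 CpG dinucleotides, that of Fbxo21 20 and that of Fbxl17 11, against a median of 6 over the 27025 genes with a promoter in the table. Their shares of G and C were 68, 62 and 58.4%, in that order, against a median of 52%. Of the 50 tested F-box genes, 40 had a promoter sequence. A FoxO motif, TGTTTAC on either strand, was in the window of 0 of these 40 and of 3.54% of all genes. The E-box CACGTG was in 2 of 40 (Fbxl2 and Fbxo10) and in 6.86% of all genes. TGACGTCA, the cyclic AMP response element, was in 1 of 40 (Fbxw9) and in 1.77% of all genes, and TATAAA on either strand was in 0 of 40 and 14.3% of all genes. None of the 4 motifs was in the 3 promoters printed; a match or its lack describes these letters in this window only.

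The F-box genes other than Fbxo32 summed to similar levels in all 8 libraries. Summed over the 50 tested genes, the level was 1013 and 1052 CPM in RP 1 and 2, 1018, 1016 and 971 CPM in Control 1, 2 and 3, and 983, 1012 and 1035 CPM in Normal 1, 2 and 3. The highest library was 1.08 times the lowest, and the 3 groups overlapped. Fbxo32 alone was at 399.9 and 404 CPM in the RP libraries, 174, 172 and 151 CPM in the Control libraries and 719, 1248 and 1463 CPM in the Normal libraries, a 9.69-fold range with no overlap between groups. In the Normal libraries Fbxo32 therefore gave 719 to 1463 CPM, against 983 to 1035 CPM from the 50 other genes together. QuantSeq counts fragments at transcript ends, so these levels were not divided by gene length.

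**Figure D1:**
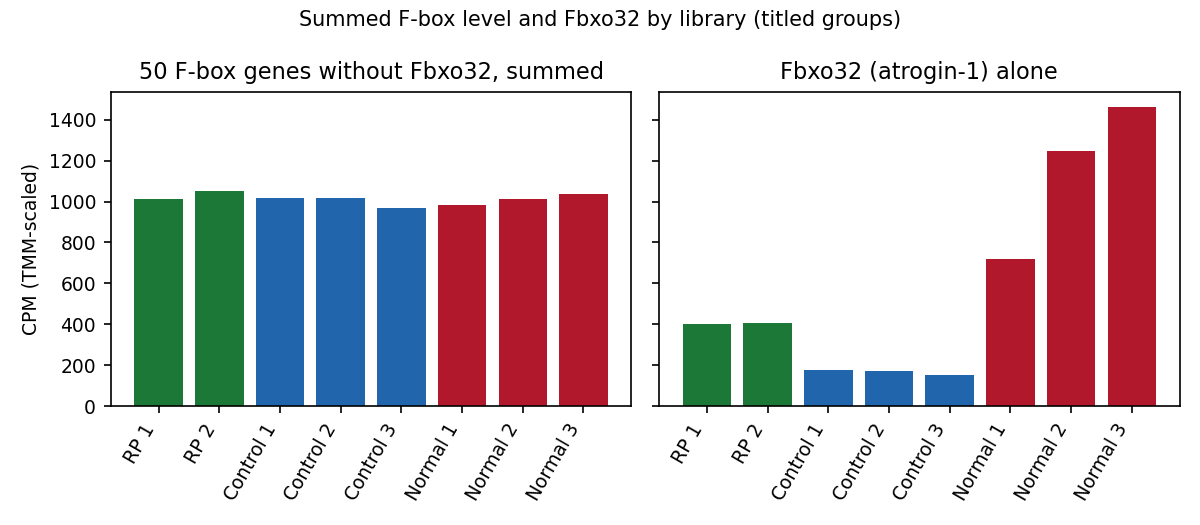
Bars give CPM, scaled with TMM factors, in each of the 8 libraries: left, the sum over the 50 tested F-box genes without Fbxo32; right, Fbxo32 alone on the same axis. The sums lie between 971 and 1052 CPM in all libraries, while Fbxo32 ranges from 151 to 1463 CPM.

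The F-box transcripts were spread unevenly over the genes. The 5 highest, Fbxo31, Fbxo3, Fbxw7, Fbxw2 and Fbxo9, made 33.6% of the summed level, and the 10 highest made 55.7%. Part of an annotated 3′ end of Fbxw2 is identical to stretches of Acp6, Cenpf, Nvl, Pak2 and Zfp60 transcripts, so its counts are uncertain. Mean levels over the 8 libraries were at least 50 CPM for 6 genes, 10 to 50 CPM for 26 genes, 1 to 10 CPM for 17 genes and under 1 CPM for 1 gene. Among the 36 genes at 5 CPM or more, the coefficient of variation over all 8 libraries had a median of 17.2%. It was lowest for Fbxw8 (7.93%), the F-box protein that also works with CUL7, and highest for Fbxo6 (28.8%). An exon of Gm9754 on the opposite strand lies in the last 500 bases of Fbxw8, so its counts cannot be fully separated.

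The 27 rows that did not pass the filter had few or no counts. Of these, 16 had no count in any library, which over 83375590 counts allows a level of up to 0.0360 CPM (3 counts; this covers counting error only). They included 13 neighbouring Fbxw genes on chromosome 9 (109139447 to 109790670, mm10), from Fbxw21 to Fbxw27. This set was taken from the rows without counts, and sequence shared among these genes, which can cost reads, was not checked. The other 3 were Fbxo15, Fbxo39 and Fbxo43, of which Fbxo43 encodes the oocyte cell-cycle inhibitor EMI2. Among rows with some counts, the highest below the filter was Fbxo24 with 43 counts over 8 libraries, and the lowest tested gene was Fbxl13 with 69. Fbxo2, which binds sugar chains of misfolded glycoproteins, had 39 counts in all. The row Fbxl12os met the symbol rule but names a transcript on the opposite strand of Fbxl12, and it did not pass the filter with 37 counts.

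**Figure D2:**
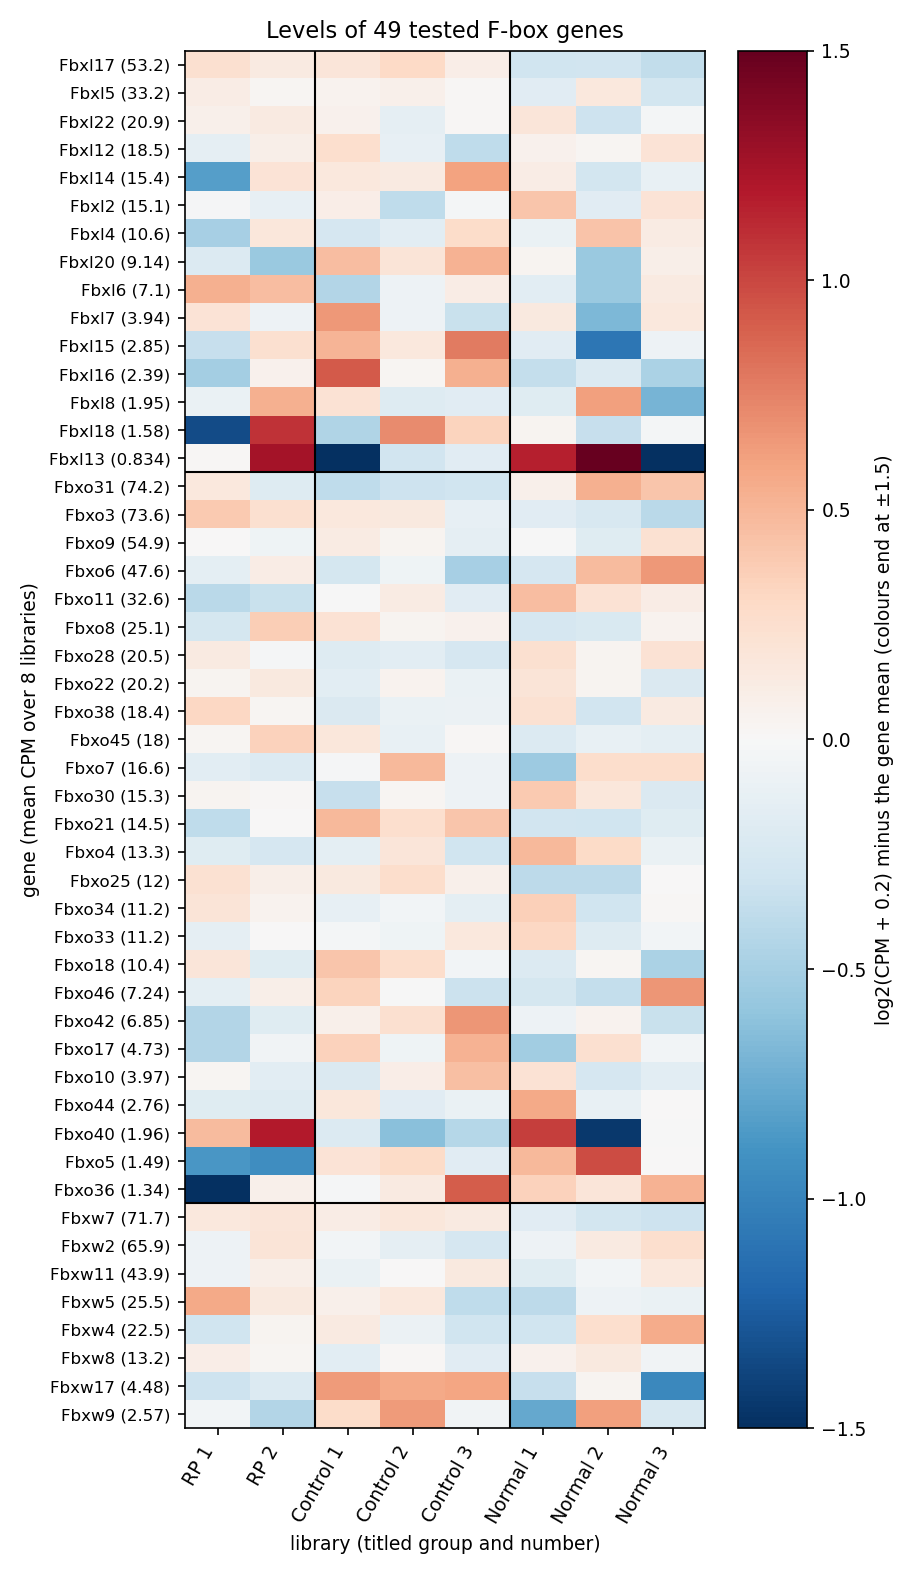
Colours give log2(CPM + 0.2) minus the gene's mean over 8 libraries for 49 tested F-box genes in rows, ordered by family and mean CPM (in parentheses), with libraries in columns by titled group. The darkest colours lie in genes under 3 CPM such as Fbxl13, Fbxo40 and Fbxl18, and the colour scale ends at 1.5 on either side.

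By title, Control against Normal addresses the effect of the tumour. Here 3 of the 50 F-box genes passed edgeR's quasi-likelihood test at an adjusted p under 0.05. Fbxo21 and Fbxl17 were higher and Fbxo31 was lower in the Control libraries. That is 6.00% of the F-box genes, against 10.4% of all 13174 genes tested. By direction, 2 genes (4.00%) were higher, against 4.99% of all genes, and 1 gene (2.00%) was lower, against 5.45%. These shares are at or below the background, so the count says nothing particular about the family. The median log2 change was 0.032 over the 50 genes and 0.000 over all genes. Changes beyond 1.5-fold were found in 8 of 50 F-box genes (16%) and in 22.4% of all genes. At an unadjusted p under 0.05 the counts were 12 of 50 (24.0%) and 26.3% of all genes. The CPM ranges of Control and Normal did not overlap for 14 of 50 F-box genes (28.0%), against 31.3% of all genes: 12 were higher in Control (24.0%, against 16.6%) and 2 lower (4.00%, against 14.7%).

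Fbxo31 (chromosome 8, 121549440 to 121578806, mm10) was the F-box gene with the highest mean level. In human cells its protein marks cyclin D1 for degradation after DNA damage, and in mouse muscle the gene has been listed among FoxO targets. It was at 80.7 and 63.1 CPM in RP 1 and 2 and 55.6, 58.0 and 58.6 CPM in Control 1, 2 and 3, against 76.0, 105 and 96.8 CPM in Normal 1, 2 and 3. Control lay below both other groups, and RP 1 lay within the Normal range. The log2 change of Control against Normal was -0.69 ± 0.156 (SE), with edgeR adjusted p = 0.0135. RP did not differ from either group at the threshold: the log2 change was 0.33 ± 0.174 (SE) against Control (edgeR adjusted p = 0.615) and -0.36 ± 0.175 (SE) against Normal (edgeR adjusted p = 0.313).

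Fbxo21 (chromosome 5, 117976730 to 118010201) went the other way. The SMART ligase it encodes is tied to denervation atrophy in mice. It was at 10.8 and 14.1 CPM in RP 1 and 2 and 19.8, 16.8 and 18.9 CPM in Control 1, 2 and 3, against 11.5, 11.4 and 12.4 CPM in Normal 1, 2 and 3. Every Control library lay above every Normal library, with a log2 change of 0.65 ± 0.176 (SE) and edgeR adjusted p = 0.0325. RP lay below all Control libraries, with a library on either side of the Normal range. The log2 change of RP was -0.57 ± 0.20 (SE) against Control (edgeR adjusted p = 0.392) and 0.08 ± 0.20 (SE) against Normal (edgeR adjusted p = 0.893). Part of the 3′ end of Fbxo21 is identical to a stretch of the transcript Gm5403, so its counts are uncertain.

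Fbxl17 (chromosome 17, 63057452 to 63500017) encodes an adaptor that, in human cells, removes wrongly paired BTB-domain proteins. It was at 61.9 and 57.6 CPM in RP 1 and 2 and 59.3, 64.5 and 56.4 CPM in Control 1, 2 and 3, against 42.6, 43.1 and 40.4 CPM in Normal 1, 2 and 3. Control and Normal did not overlap, with a log2 change of 0.51 ± 0.131 (SE) and edgeR adjusted p = 0.0241. The RP libraries lay within the Control range and above every Normal library. The log2 change of RP was -0.01 ± 0.145 (SE) against Control (edgeR adjusted p = 0.996) and 0.51 ± 0.145 (SE) against Normal (edgeR adjusted p = 0.0853).

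The calls of these 3 genes were not stable. None of them passed without Normal 2, or without Control 1, 2 or 3: the adjusted p was 0.0594 to 0.0753 for Fbxo31, 0.0569 to 0.137 for Fbxo21 and 0.0616 to 0.0961 for Fbxl17 over these 4 fits, with log2 changes of -0.70 to -0.59, 0.60 to 0.73 and 0.47 to 0.56. With a replicate block Fbxo21 did not pass (edgeR adjusted p = 0.0559). Markers of red cells, neutrophils, and fibro-adipogenic cells and tenocytes moved with the same groups. Of the erythroid markers 0 of 9 tested were higher and 8 lower in the Control libraries, where their sum was 9222 to 11738 CPM against 29682 to 162070 CPM in the Normal libraries. Of the neutrophil markers 0 of 10 were higher and 9 lower, and no marker of either list was at 0 in all libraries. With log2 Hba-a1 as a covariate the log2 changes were -0.66 for Fbxo31, 0.89 for Fbxo21 and 0.43 for Fbxl17. None passed in that fit (edgeR adjusted p = 0.187, 0.123 and 0.283, in that order). Hba-a1 itself was at 5229 to 6716 CPM in the Control and 14878 to 81503 CPM in the Normal libraries. Control and Normal did not overlap in the covariate, so that fit can hardly tell it from the group. Of the 8 fibro-adipogenic and tenocyte markers 5 were higher and 0 lower in the Control libraries, where their sum was 7769 to 8605 CPM against 5232 to 7964 CPM in the Normal libraries. Of the 10 muscle fibre markers 2, Pvalb and Mylpf, were higher and 0 lower. Of the 8 endothelial markers 0 were higher and 1, Vwf, was lower. Of the 6 satellite cell markers 0 were higher and 1, Myod1, was lower, and 0 of 8 macrophage markers passed. The part of red cell, neutrophil, connective tissue, fibre, endothelial and satellite cell RNA in these differences was not tested.

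**Figure D3:**
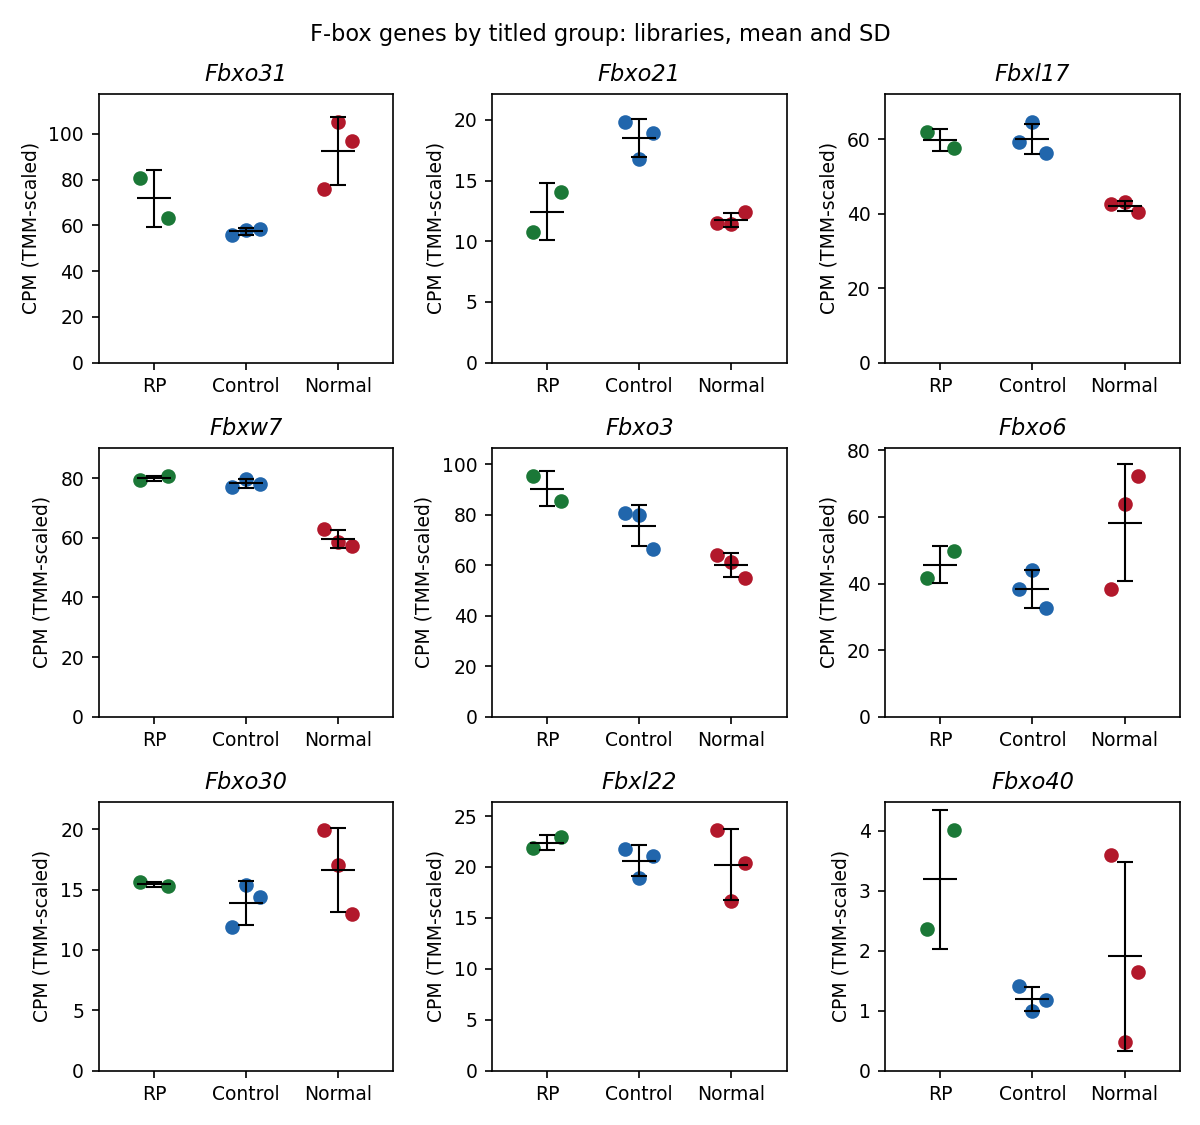
Points are CPM, scaled with TMM factors, of single libraries for 9 F-box genes, by titled group; horizontal bars are group means and error bars are SD (n = 2 RP, 3 Control, 3 Normal). Control and Normal points are apart for Fbxo31, Fbxo21, Fbxl17, Fbxw7 and Fbxo3, and overlap for Fbxo6, Fbxo30, Fbxl22 and Fbxo40.

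The other F-box genes with a known place in muscle did not pass. Fbxo30 was at 15.6 and 15.3 CPM in the RP libraries, 11.9, 15.4 and 14.4 CPM in the Control libraries and 19.9, 17.0 and 13.0 CPM in the Normal libraries. Control and Normal overlapped (log2 change -0.26 ± 0.194 (SE), edgeR adjusted p = 0.426). Fbxl22, which in heart cells acts on sarcomeric proteins, was at 21.9 and 22.9 CPM in the RP libraries. It was at 21.8, 18.9 and 21.1 CPM in the Control and 23.6, 16.7 and 20.4 CPM in the Normal libraries. The Control against Normal log2 change was 0.03 ± 0.168 (SE). An exon of Herc1 on the opposite strand lies in the last 500 bases of Fbxl22, and the strand counted is not given in the sources used here, so its counts cannot be fully separated. Fbxo9 stood at 52.4 to 54.7 CPM in the RP, 49.7 to 59.5 CPM in the Control and 48.3 to 64.1 CPM in the Normal libraries (log2 change -0.01 ± 0.146 (SE)). Fbxo40 was close to the detection limit: 2.37 and 4.01 CPM in the RP, 1.41, 1.00 and 1.18 CPM in the Control and 3.60, 0.479 and 1.65 CPM in the Normal libraries. Its Normal libraries alone spanned more than the whole Control range (log2 change -0.67 ± 0.597 (SE), edgeR adjusted p = 0.518). Fbxo25, the closest relative of Fbxo32, was at 13.8 and 12.5 CPM in the RP, 13.1, 14.2 and 12.4 CPM in the Control and 8.91, 8.90 and 11.8 CPM in the Normal libraries, and did not pass (edgeR adjusted p = 0.177). Of these 7 muscle-linked genes, Fbxo21 was higher, Fbxo31 was lower and 5 did not pass in the Control libraries. Among all genes tested 4.99% were higher and 5.45% lower. The 7 genes were chosen by role with earlier results known, and whether their share differs was not tested.

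Of the 8 tested WD40-type genes, edgeR's test with TMM factors called 0 in each of the 3 comparisons. Of all genes tested it called 10.4% for Control against Normal, 0.175% for RP against Control and 2.50% for RP against Normal. Fbxw7 and Fbxw17 passed between Control and Normal under other settings. Fbxw7, which marks cyclin E, MYC and Notch for degradation, came close. It was at 79.4 and 80.6 CPM in the RP libraries and 76.9, 79.8 and 77.9 CPM in the Control libraries, against 62.9, 58.6 and 57.1 CPM in the Normal libraries. All 5 libraries of tumour-bearing titles lay above all 3 Normal libraries, with a log2 change of Control against Normal of 0.39 ± 0.126 (SE) and edgeR adjusted p = 0.0645; it passed with upper-quartile normalization, a mean CPM of at least 5 or without Normal 1 (adjusted p = 0.0413, 0.0418 and 0.0316). Fbxw11, one of the pair of β-TrCP proteins that mark the NF-kB inhibitor IkBα for degradation, was at 41.4 and 46.5 CPM in the RP, 40.8, 43.9 and 48.6 CPM in the Control and 38.7, 42.6 and 48.7 CPM in the Normal libraries. The 3 ranges lay over each other (Control against Normal log2 change 0.04 ± 0.145 (SE)). Fbxw17 had the largest positive log2 change of the family, 1.01 ± 0.303 (SE), at a low level: 3.34 and 3.60 CPM in the RP and 6.61, 6.30 and 6.42 CPM in the Control libraries, against 3.24, 4.31 and 2.04 CPM in the Normal libraries. Its edgeR adjusted p was 0.0508, and 0.0344 to 0.516 over the alternatives. Fbxw17 passed in DESeq2 (adjusted p = 0.0347) and limma-voom (0.0379), with upper-quartile normalization (0.0411), no filter (0.0344) or haemoglobin genes and Rn45s removed (0.0476), and without Normal 2 (0.0426). Fbxw5 (log2 change 0.15, adjusted p = 0.673) and Fbxw4 (log2 change -0.29, adjusted p = 0.427), whose 3′ end overlaps Gm17018, did not pass in edgeR.

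The F-box genes of iron handling and mitochondria overlapped between Control and Normal libraries. Fbxl5, an iron sensor that removes the iron regulatory protein IRP2, was at 33.4 to 34.7 CPM in the Control and 27.2 to 37.0 CPM in the Normal libraries (log2 change 0.13 ± 0.151 (SE)). Fbxl4, a mitochondrial protein that limits mitophagy, was at 8.73 to 12.7 CPM in the Control and 9.72 to 14.1 CPM in the Normal libraries (log2 change -0.19 ± 0.242 (SE)). Fbxo7, which acts in PINK1 and Parkin mitophagy, was at 15.4 to 22.7 CPM in the Control and 11.0 to 19.4 CPM in the Normal libraries (log2 change 0.12 ± 0.233 (SE)). Exons of Fbxl5 overlap Bst1 and exons of Fbxo7 overlap A230060F14Rik, each on the other strand.

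Of the 5 F-box genes with an F-box-associated (FBA) domain, Fbxo6, Fbxo44 and Fbxo17 were tested. Between Control and Normal libraries 0 of these passed in edgeR, beside 10.4% of all genes tested. Fbxo6 (chromosome 4, 148145716 to 148152140) helps remove misfolded glycoproteins from the endoplasmic reticulum and varied most among the better expressed members. It was at 41.7 and 49.7 CPM in the RP and 38.4, 44.0 and 32.5 CPM in the Control libraries, against 38.5, 63.9 and 72.2 CPM in the Normal libraries. Normal 1 lay within the Control range, and the other Normal libraries lay above it. The log2 change of Control against Normal was -0.60 ± 0.211 (SE) with edgeR adjusted p = 0.0875; without Normal 1 it was -0.83 and passed (adjusted p = 0.00376), and with log2 Hba-a1 as a covariate it was 0.15 (adjusted p = 0.799). Across the 3 Normal libraries Fbxo6 had the same order as their haemoglobin shares of 4.57, 9.56 and 19.7%. Other members had this order too, Fbxw2, Fbxw4 and Fbxw11 among them, and some, such as Fbxo3 and Fbxw7, had the opposite order. An order of 3 libraries is easily met, and a link was not tested.

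Besides the genes already described, 5 others stood at the ends of the Control against Normal range, most of them with few counts. Fbxl16 (log2 change 0.96), Fbxl15 (0.94), whose 3′ end overlaps Cuedc2, and Fbxl20 (0.52) were on the positive side. Fbxl13 (-2.11) and Fbxo5 (-0.48), the gene of the cell-cycle inhibitor EMI1, were on the negative side. None of these 5 passed in edgeR (adjusted p = 0.141, 0.146, 0.170, 0.235 and 0.550). Exons of Fbxl20 overlap Gm11632 on the same strand, and exons of Fbxl13 overlap Lrrc17 on the other strand. Part of the 3′ end of Fbxo5 is identical to a stretch of Gm16042. The counts of Fbxl20, Fbxl13 and Fbxo5 are therefore uncertain. Fbxl13 was at 0, 0.400 and 0.452 CPM in the Control and 1.44, 2.30 and 0 CPM in the Normal libraries, so a library of each group had no count.

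**Figure D4:**
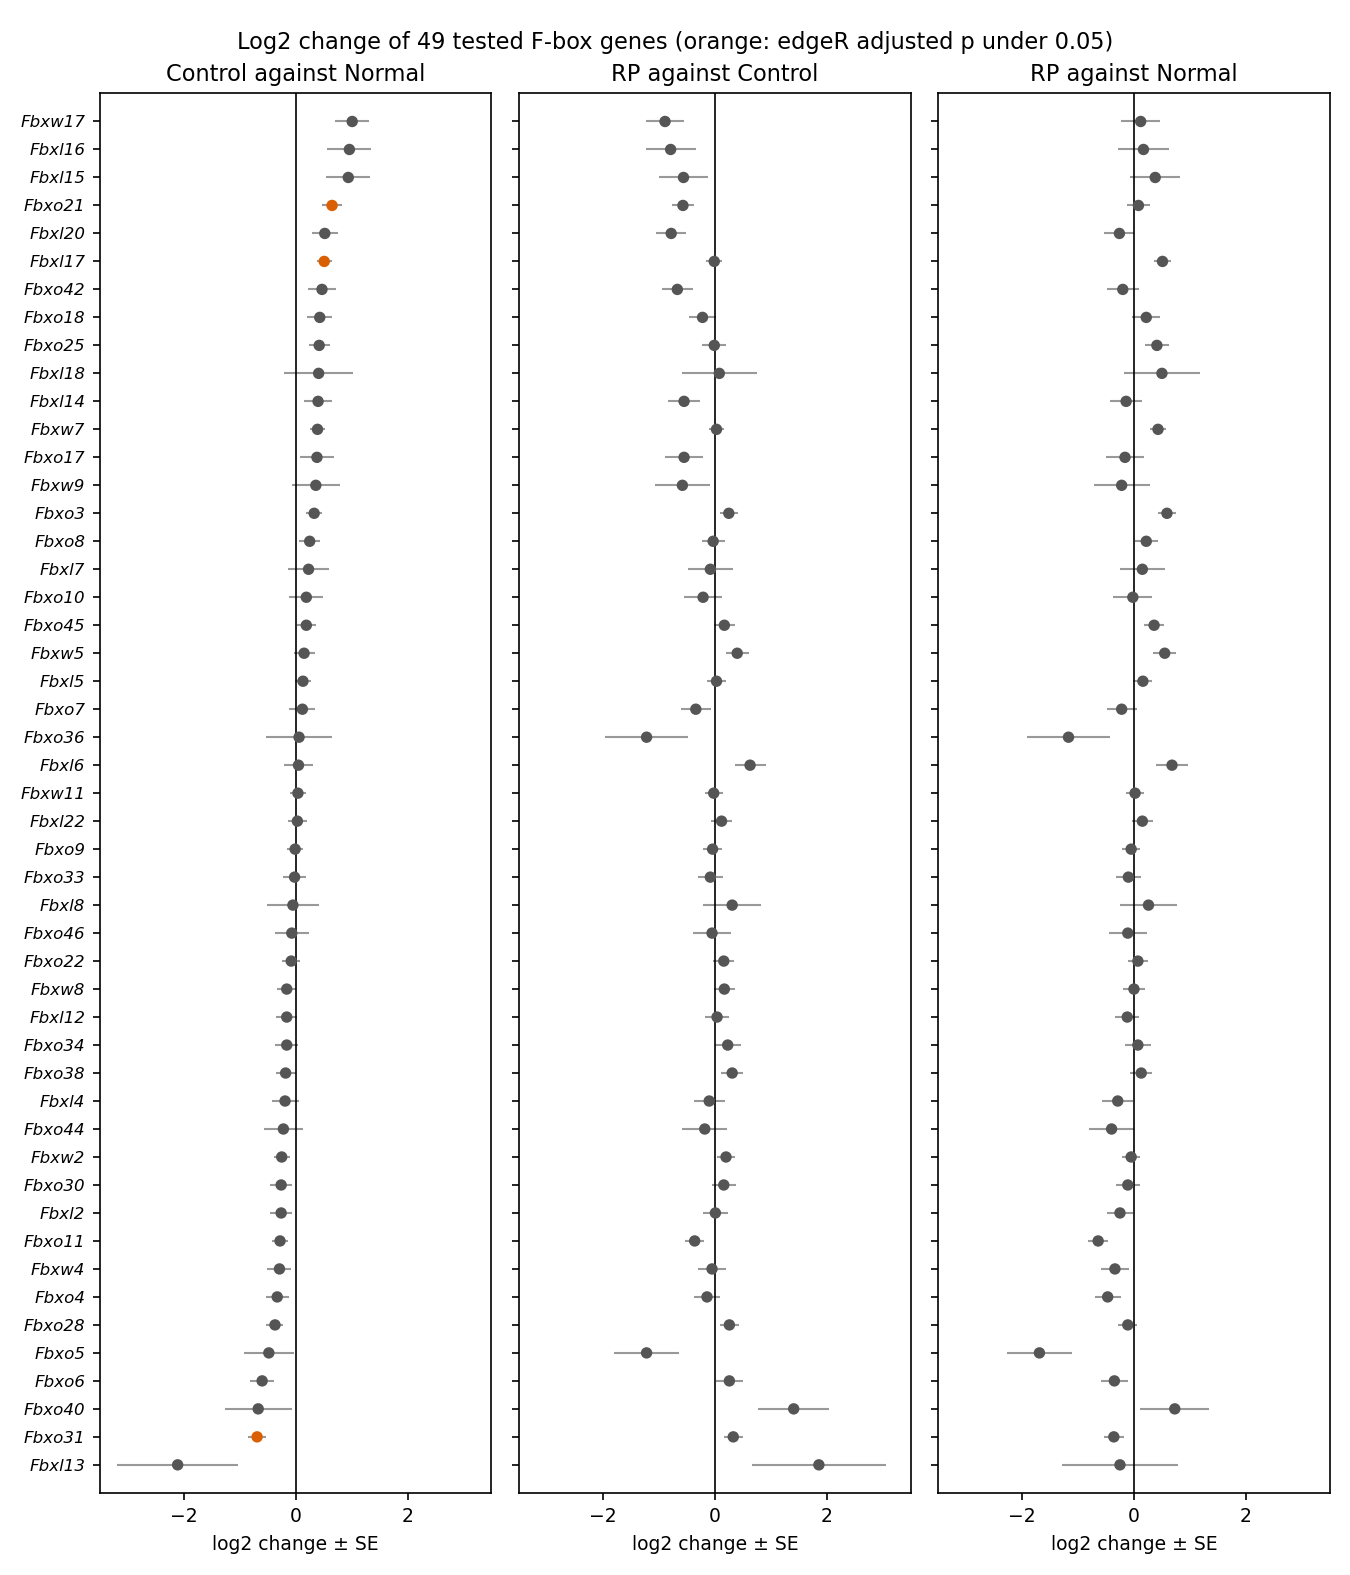
Points are log2 changes and lines their SE for 49 tested F-box genes in the 3 comparisons, ordered by the change of Control against Normal. Orange points (Fbxo21, Fbxl17 and Fbxo31, in the Control against Normal panel alone) had an edgeR adjusted p under 0.05; RP against Control and RP against Normal have 0 orange points.

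By title, RP against Control addresses the extract. Of the 50 F-box genes 0 passed in edgeR, against 0.175% of all genes tested. At an unadjusted p under 0.05 the counts were 6 of 50 (12.0%) and 8.98% of all genes. DESeq2 and limma-voom also called 0 F-box genes, beside 0.850% and 0.0759% of all genes. Of the 10 neutrophil markers 2 were higher and 0 lower in the RP libraries. The median log2 change was -0.019 over the 50 genes and -0.004 over all genes. A p over the threshold does not show that a gene did not differ. In the same comparison Fbxo32 had a log2 change of 1.28 ± 0.234 (SE) with edgeR adjusted p = 0.0512.

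The largest differences between RP and Control lay in low genes. Fbxl13 (log2 change 1.86) and Fbxo40 (1.41 ± 0.638 (SE)) had the largest positive values, and Fbxo36 (-1.22) and Fbxo5 (-1.22 ± 0.588 (SE)) the largest negative ones. Fbxo5 was at 0.647 and 0.617 CPM in the RP libraries and 1.59, 1.70 and 1.18 CPM in the Control libraries, so the ranges were apart but rested on 6 counts in each RP library. Fbxo36 had 1 count in RP 1 and 12 in RP 2. At higher levels, Fbxl20, which acts at synapses in mice, was at 7.65 and 5.96 CPM in the RP and 12.2, 10.1 and 12.8 CPM in the Control libraries (log2 change -0.78 ± 0.268 (SE), edgeR adjusted p = 0.377). Fbxl6 was at 10.0 and 9.56 CPM in the RP and 5.03, 6.50 and 7.41 CPM in the Control libraries (log2 change 0.63 ± 0.278 (SE), edgeR adjusted p = 0.538). Fbxw17, Fbxl16 and Fbxw5 had log2 changes of -0.89, -0.79 and 0.40 (edgeR adjusted p = 0.460, 0.641 and 0.597).
The CPM ranges of RP and Control did not overlap for 18 of 50 F-box genes (36.0%), against 31.7% of all genes tested.

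Between RP and Normal libraries 0 of 50 F-box genes passed in edgeR, against 2.50% of all genes tested. In this comparison 4 of the 8 fibro-adipogenic and tenocyte markers were higher, and 3 of 9 erythroid and 2 of 10 neutrophil markers were lower. Of the muscle fibre markers 1 of 10, Pvalb, was higher, and of the satellite cell markers 1 of 6, Myod1, was lower. At an unadjusted p under 0.05 the counts were 7 of 50 (14.0%) and 17.1% of all genes. DESeq2 called 2 F-box genes, Fbxo3 and Fbxo11, beside 5.94% of all genes, and limma-voom called 0, beside 2.54%. Fbxo3, which in human cells removes the F-box protein FBXL2, was at 95.3 and 85.4 CPM in the RP libraries and 80.9, 80.1 and 66.4 CPM in the Control libraries, against 64.3, 61.3 and 54.8 CPM in the Normal libraries. Control lay between the other groups with no overlap. The log2 change of RP against Normal was 0.59 ± 0.155 (SE) for Fbxo3 with edgeR adjusted p = 0.0676, and 0.0233 in DESeq2; exons of 4931422A03Rik overlap it on the other strand. Fbxo11, which marks the repressor BCL6 for degradation, was at 24.2 and 25.3 CPM in the RP libraries and 31.9, 35.0 and 28.5 CPM in the Control libraries, against 44.2, 37.1 and 34.5 CPM in the Normal libraries. RP lay below both other groups. Its log2 change was -0.64 ± 0.174 (SE), with edgeR adjusted p = 0.0751 and DESeq2 adjusted p = 0.0385, and its 3′ end overlaps Msh6 on the other strand. In edgeR, Fbxo3 passed without Normal 1 (adjusted p = 0.0319) and Fbxo11 without Normal 3 (adjusted p = 0.0445).
The other genes at the ends of this range did not pass in edgeR. Fbxo40, Fbxl6 and Fbxw5 had log2 changes of 0.73, 0.68 and 0.55, and Fbxo5, Fbxo36, Fbxo4 and Fbxo44 of -1.69, -1.17, -0.47 and -0.40, with adjusted p of 0.147 to 0.672 over these 7 genes. The median log2 change was -0.032 over the 50 F-box genes and -0.037 over all genes tested. The CPM ranges of RP and Normal did not overlap for 12 of 50 F-box genes (24.0%), against 30.8% of all genes.

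Of the rest of the SCF machinery 1 gene passed. Cul1, the cullin scaffold, was at 86.4 and 81.7 CPM in the RP libraries and 76.0, 73.7 and 79.6 CPM in the Control libraries, against 104, 109.9 and 97.2 CPM in the Normal libraries. The 3 groups did not overlap, with a log2 change of Control against Normal of -0.44 ± 0.129 (SE) and edgeR adjusted p = 0.0464. Over the alternatives the adjusted p was 0.0193 to 0.170, and without Normal 2, any Control library or either RP library it was 0.0639 to 0.170. Skp1a was at 231, 249.6 and 238 CPM in the Control libraries and 236, 311 and 287 CPM in the Normal libraries, and Rbx1 at 110.1 to 135 CPM in the Control and 101 to 130.5 CPM in the Normal libraries. Neither passed (log2 change -0.21 ± 0.154 (SE), edgeR adjusted p = 0.410, and 0.13 ± 0.160 (SE), edgeR adjusted p = 0.646).
Of 12 tested SCF core genes, 0 were higher and 1 lower in the Control libraries, with a median log2 change of 0.068. Among all genes tested 4.99% were higher and 5.45% lower, which is the background for the lists that follow too. Of 20 tested genes of NEDD8 conjugation and the COP9 signalosome, which switch cullins on and off, 0 passed (median -0.010), as did 0 of 7 other cullins (median -0.219). Of the 5 tested F-box genes named outside the symbol rule, Btrc, Skp2, Kdm2a, Kdm2b and Lmo7, 0 passed, with a median log2 change of -0.366. Btrc, the other β-TrCP gene, averaged 30.0 ± 3.76 CPM in the Control and 21.2 ± 3.90 CPM in the Normal libraries (SD, n = 3 each, edgeR adjusted p = 0.0872). Lmo7 went the other way, at 48.9 ± 5.84 CPM in the Control and 66.1 ± 0.835 CPM in the Normal libraries (edgeR adjusted p = 0.0871). The log2 changes were 0.50 for Btrc, 0.41 for Kdm2b, -0.37 for Kdm2a, -0.44 for Lmo7 and -1.79 for Skp2. Skp2 was low, with means of 0.395 CPM in the Control and 1.41 CPM in the Normal libraries. In RP against Control and in RP against Normal 0 genes of these 4 lists passed, beside 0.175% and 2.50% of all genes tested.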

How the data were processed

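The deposited files give raw read counts per gene symbol, 1 library each. Bowtie2, edgeR and the build mm10 appear, with no version, in the submitters' processing notes. The counting tool, the strand and the annotation are not given in the sources used here. Per the labels' protocols, the Lexogen QuantSeq 3′ kit was used on 500 ng of RNA per library. Libraries held 9528011 to 12333767 counts, and 44 repeated symbol rows were kept under separate names.

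Groups follow the titles. All 8 libraries were fitted together in R 4.3.3 with edgeR 4.0.16 (filterByExpr, TMM, quasi-likelihood test, 2-sided, Benjamini-Hochberg adjustment over 13174 genes per comparison, threshold 0.05). An SE is the log2 change over the square root of the F statistic. CPM are on TMM-scaled library sizes. The fit was tested on simulated data. The alternatives tried were DESeq2 1.42.0, limma-voom (limma 3.58.1), RLE or upper-quartile scaling, a filter at a mean CPM of 5, no filter, 2 groups only, a replicate block, haemoglobin genes and Rn45s removed, log2 Hba-a1 as a covariate, a threshold of 0.1 and leaving out each library. With 1 RP library left, its variation was taken to be that of the other groups.

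Positions and overlaps came from GENCODE M21 (GRCm38, the same assembly as mm10), in which all 77 symbols matched, Fbxo18 by a synonym. Of the 50 tested genes 16 share exon bases with another gene, and 5 share a 50-base word of their last 300 bases with another gene's transcript. Genes were named if they passed in any comparison, were among the 5 largest changes either way, were fixed by role, or were among the 3 highest. Fbxo25, Fbxw8, Fbxw2, Fbxl2, Fbxo10, Fbxw9, Fbxo17, Fbxl18, the 5 F-box genes outside the symbol rule, the marker genes and the genes under the filter were named outside this rule, after their values were seen. The members, lists and this rule were chosen with earlier results of these data known. Of the 50 tested genes, 1 is counted but not reported here by name. Figures were drawn with matplotlib 3.10.9.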

Additional observations from a re-analysis of the deposited data

How the results depend on the processing

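Between Control and Normal libraries, 3 F-box genes passed. The count was 5 with upper-quartile normalization (4 higher and 1 lower; 10.4% of all genes passed) or no filter (10.3%), and 4 in DESeq2 (12.8%) and limma-voom (10.3%). It was 6 at a threshold of 0.1 (16.7%). With log2 Hba-a1 as a covariate, in which Control and Normal did not overlap, the count was 0 (2.90%). It was 0 to 5 when 1 library was left out: 5 without Normal 1 (14.2%), 1 without Normal 2 (6.16%) and 0 without Control 1, 2 or 3 (4.66, 6.44 and 4.65%). The replicate block gave 2 (9.25% of all genes), Fbxl17 and Fbxo31, without Fbxo21, and changed no other call of an F-box gene; Cul1 did not pass with it (adjusted p = 0.0936). Same-numbered libraries of different groups had deviations correlated with r of -0.068 to 0.080, so the numbers were not taken as pairs. For RP against Control the count was 0 under every alternative run, where 0.0609 to 1.14% of all genes passed. For RP against Normal it was 1 with no filter (4.02% of all genes), 2 in DESeq2 (5.94%) and 3 at a threshold of 0.1 (5.39%). It was 1 without Normal 1 (5.13%) or Normal 3 (4.42%). Without Normal 2 (1.05%) or any Control library (1.51 to 1.72%) it was 0. Over 882 alternatives of 50 single-gene changes, 24 changed sign, none of them past the threshold; the cause was not tested. With log2 Hba-a1 as a covariate these were, for Control against Normal, Fbxl22 (-0.09), Fbxl4 (0.26), Fbxo6 (0.15), Fbxo9 (0.13), Fbxw4 (0.46) and Skp1a (0.15). Fbxo9 was also at 0.03 with upper-quartile normalization and 0.00 at a mean CPM of at least 5. For RP against Control, Fbxl17 was at 0.00 with RLE, DESeq2 or the covariate. Leaving out 1 library gave -0.06 to 0.05 for Fbxl17 (RP against Control), -0.13 to 0.26 for Fbxo21 (RP against Normal) and, for Control against Normal, -0.10 to 0.15 for Fbxl22, -1.13 to 0.17 for Fbxo40, -0.11 to 0.25 for Fbxo7, -0.10 to 0.10 for Fbxo9 and -0.04 to 0.12 for Fbxw11. Depth limits genes such as Fbxl13, with 69 counts over 8 libraries.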
